A study of Mus musculus with 2 samples.

Results

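The hepatocyte identity transcription factors described here are 9 genes, Hnf4a, Foxa1, Foxa2, Foxa3, Cebpa, Cebpb, Onecut1, Prox1 and Nr5a2, chosen by symbol from the 19465 genes of the count tables. All 9 had a row in the tables, and all 9 passed the minimum of 50 UMIs that was set for a comparison. UMIs, or unique molecular identifiers, count captured molecules. They were measured in fixed liver tissue on 10x Visium slides, where ligated probe pairs are captured on barcoded spots, each spot covering a small region with several cells. The data comprise 1 section of 1 AEG-1-WT mouse and 1 section of 1 AEG-1-C75S mouse. Both mice were untreated female littermates aged 8 weeks from a cross of heterozygotes, and the same lobe was sectioned in each. AEG-1 is the protein encoded by Mtdh, and AEG-1-C75S is a CRISPR/Cas9 knock-in carried in all cells, in which the cysteine that is normally palmitoylated is replaced by serine. The comparison therefore asks how the levels and the lobular distribution of these factors differ between a liver whose AEG-1 can be palmitoylated at that cysteine and a liver whose AEG-1 cannot. With 1 section per genotype there was no replicate and no test between the genotypes, so that each ratio compares those libraries and not the conditions.

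Hepatocyte identity is maintained by a network of DNA-binding proteins that occupy one another's genes and the genes of the differentiated liver. Hnf4a and Nr5a2 are nuclear receptors, the Foxa proteins are forkhead factors that can open closed chromatin, Cebpa and Cebpb are basic leucine zipper factors, Onecut1 is a cut-homeodomain factor also known as Hnf6, and Prox1 is a homeobox factor needed for hepatocyte migration in the liver bud. Along the liver lobule, hepatocytes near the portal vein and hepatocytes near the central vein carry different metabolic programs, which is called zonation, and several of the factors are also expressed by the cholangiocytes that line the bile ducts.

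After removal of spots above 50000 UMIs, 2309 spots with 42246988 UMIs remained in the AEG-1-WT section and 2163 spots with 41674347 UMIs in the AEG-1-C75S section. The median spot held 16830 UMIs in AEG-1-WT versus 18808 in AEG-1-C75S, and the range between the 5th and the 95th percentile was wider in AEG-1-C75S (6598.8 to 33879.9) than in AEG-1-WT (11460 to 29951). The sections shared 1896 spot barcodes, which are positions of the slide design and not shared cells. Mtdh gave 3143 UMIs in AEG-1-WT versus 3056 in AEG-1-C75S. These counts do not check the label, because a count of ligated probe pairs does not give the sequence of the mutated codon. The liver label was borne out by the markers, since all 5 hepatocyte markers (Alb, Apoa1, Ttr, Apob and Serpinc1) were detected, with a summed level of 173407 CPM in AEG-1-WT versus 178763 in AEG-1-C75S. CPM are the UMIs of a gene divided by all UMIs of the same spots and scaled to a total of 1000000. Markers of other cells were also detected in both sections. No measured marker was at 0, and 1 of the 4 listed for lymphatic endothelium and 1 of the 4 for red blood cells had no row. Their summed levels, with the AEG-1-WT section first, were 133 and 98.5 CPM for cholangiocytes, 247 and 205 for connective tissue, 822 and 1022 for Kupffer cells, 473 and 587 for stellate cells, 551 and 565 for sinusoidal endothelium, 28.1 and 27.9 for lymphatic endothelium, 407 and 429 for leukocytes and 611 and 404 for red blood cells.

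Sequences upstream of the annotated starts are shown for 3 factors. Onecut1 and Foxa3 had the largest ratios between the sections among the 9 genes. Cebpb alone of the 9 was called along the lobule by the rule given further on, while Nr5a2 had a shallower slope in the same direction. Each run is the 250 bases before the start in RefSeq, build GRCm38.p6, written 5′ to 3′ on the strand of the gene, with matches to common promoter motifs in capitals. Onecut1 spans chr9:74861921-74891781 on the plus strand, and the window is chr9:74861671-74861920. Foxa3 spans chr7:19013284-19023538 on the minus strand, and the window is chr7:19023540-19023789. Cebpb spans chr2:167688915-167690418 on the plus strand, and the window is chr2:167688665-167688914. The other genes lie at chr2:163506808-163572910 (Hnf4a, plus), chr12:57540628-57546916 (Foxa1, minus), chr2:148042877-148046969 (Foxa2, minus), chr7:35119293-35121928 (Cebpa, plus), chr1:190118035-190170714 (Prox1, minus) and chr1:136842571-136960448 (Nr5a2, minus) in the same build.
Onecut1: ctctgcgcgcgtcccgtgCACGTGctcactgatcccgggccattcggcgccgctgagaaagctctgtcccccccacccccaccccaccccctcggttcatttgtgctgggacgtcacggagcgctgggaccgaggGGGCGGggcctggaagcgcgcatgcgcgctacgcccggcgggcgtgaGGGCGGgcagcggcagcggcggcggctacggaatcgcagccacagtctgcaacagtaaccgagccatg
Foxa3: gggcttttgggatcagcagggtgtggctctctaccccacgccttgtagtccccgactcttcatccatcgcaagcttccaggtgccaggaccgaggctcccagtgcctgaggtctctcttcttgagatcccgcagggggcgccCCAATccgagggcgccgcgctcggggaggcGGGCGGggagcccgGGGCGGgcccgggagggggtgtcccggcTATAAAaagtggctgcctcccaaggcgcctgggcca
Cebpb: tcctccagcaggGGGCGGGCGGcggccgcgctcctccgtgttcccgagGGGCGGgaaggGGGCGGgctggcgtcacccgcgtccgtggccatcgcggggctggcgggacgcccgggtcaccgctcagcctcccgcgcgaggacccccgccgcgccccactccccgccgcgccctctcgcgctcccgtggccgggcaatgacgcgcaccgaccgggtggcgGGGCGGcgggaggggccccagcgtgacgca
Capitals mark the TATA box (TATAAA), the GC box (GGGCGG), the CCAAT box (CCAAT) and the E-box (CACGTG), each searched on both strands. The Onecut1 window held 1 E-box, 232 bases before the start, and GC boxes at 115 and 68 bases. The Foxa3 window held a TATA box at 36 bases, GC boxes at 78 and 64 bases and a CCAAT box at 108 bases. The Cebpb window held 5 GC boxes, at 238, 234, 202, 191 and 30 bases, of which those at 238 and 234 overlap. Of the 32536 windows of this length in the same table, 12.3% held a TATA box, 33.0% a GC box, 33.8% a CCAAT box and 6.04% an E-box. The windows of all 3 genes were rich in G and C, at 71.6% for Onecut1, 68.8% for Foxa3 and 81.6% for Cebpb, against a median of 52.4% over all windows. They held 31, 18 and 41 CpG dinucleotides in the same order, against a median of 6. Letters of the cAMP response element (TGACGTCA), of a forkhead motif (TGTTTAC), of an HNF4 motif (CAAAGTCCA) and of the Onecut core (ATTGAT) were searched too, and none of them stood in these 3 windows. They stood in 1.56%, 3.17%, 0.387% and 6.60% of all windows. Among the 14 windows of the 9 genes, the forkhead letters stood 141 bases before the Foxa1 start and the Onecut core stood before 1 start each of Hnf4a and Foxa2, at 59 and 213 bases. These starts are those of RefSeq and need not be the ends of the gene spans given above. The Foxa1 window, chr12:57546112-57546361, lies inside the Foxa1 span. A match is a description of letters and not a binding site.

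Over the whole sections, 3 of the 9 factors were higher in AEG-1-C75S and none was lower. Onecut1 was 1.91-fold and Foxa3 1.41-fold higher, and Foxa1 had a log2 ratio of 0.33. Cebpa and Nr5a2 lay slightly below their AEG-1-WT level, and Hnf4a, Cebpb and Foxa2 slightly above it, all within the size that a gene had to pass. A gene was called when its log2 ratio was beyond 0.32 in either direction and the 95% interval of that ratio left out 0. The intervals cover counting error only. By the same rule 5.7% of 12004 genes were higher in AEG-1-C75S and 12.2% were lower. The median log2 ratio was 0.10 over the 9 factors and −0.05 over all genes, where the 5th to 95th percentiles ran from −0.60 to 0.40. The 6 remaining ratios were small, but the interval lay above 0 for Hnf4a, Foxa2 and Cebpb and below 0 for Cebpa and Nr5a2. In such sums, more cells of a type and more RNA per cell cannot be told apart.

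**Figure D1:**
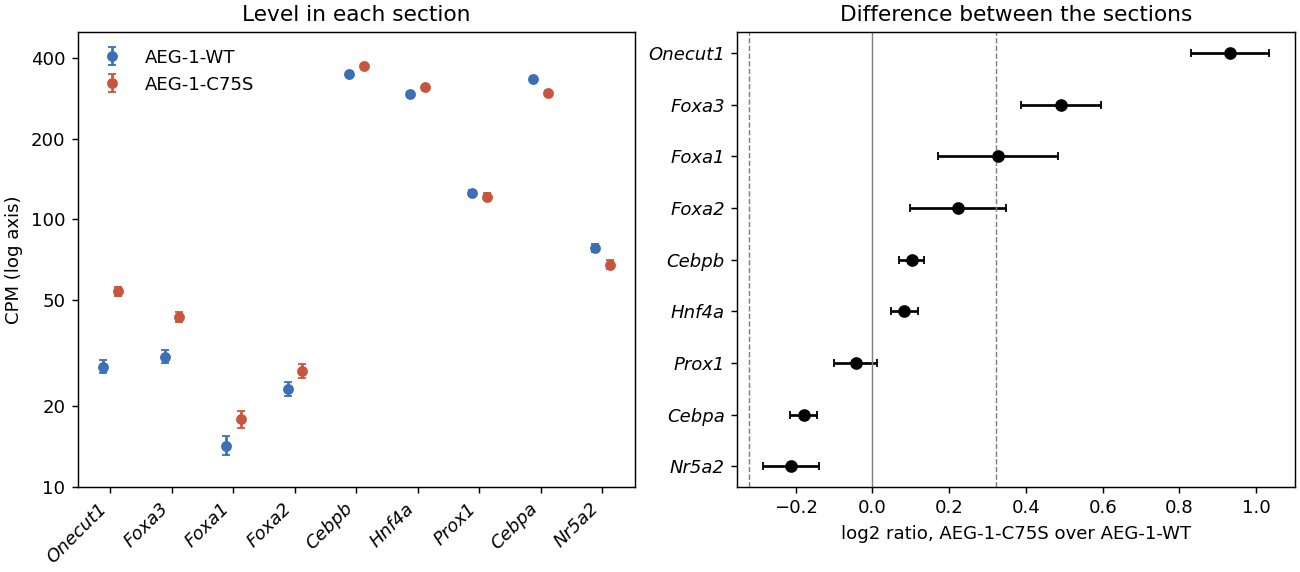
Left, level of each factor in each section in CPM (log axis), with 95% Poisson intervals. Heights are to be compared within a gene only, since probes differ between genes. Right, log2 ratio of AEG-1-C75S to AEG-1-WT with 95% counting intervals, with dashed lines at 0.32 in both directions. Onecut1, Foxa3 and Foxa1 lie at or beyond the upper line, at 0.93, 0.49 and 0.33, and no factor lies beyond the lower one.

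Onecut1, which drives bile duct and hepatocyte development and metabolic genes of the adult liver, differed most. It gave 1190 UMIs in AEG-1-WT (28.2 CPM, 95% interval 26.6 to 29.8) versus 2239 UMIs in AEG-1-C75S (53.7 CPM, 51.5 to 56.0). The log2 ratio was 0.93 (0.83 to 1.03), and 99.3% of the tested genes had a smaller one. At least 1 Onecut1 UMI was found on 39.2% of the AEG-1-WT spots (exact binomial interval 37.2 to 41.3) and on 60.1% of the AEG-1-C75S spots (58.0 to 62.2). Since spots with more UMIs detect more genes, each spot was also thinned to 3000 UMIs, leaving out 4 and 3 shallower spots. The shares were then 7.64% in AEG-1-WT versus 15.3% in AEG-1-C75S, so the section with the larger share stayed the same at equal depth. The highest count on a spot was 5 in AEG-1-WT versus 7 in AEG-1-C75S. A higher level in AEG-1-C75S was seen in each of 5 equal groups of spots along the lobule, described further on, with log2 ratios between 0.79 and 1.05 and every interval above 0. The annotation holds a second gene, Gm20649, that overlaps Onecut1 on the same strand and has no row in the tables.

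Among the forkhead factors, Foxa3 differed more than Foxa1 and Foxa2, and all 3 had the higher level in AEG-1-C75S. Foxa3, which acts on glucose-handling genes, gave 1297 UMIs in AEG-1-WT (30.7 CPM) versus 1798 in AEG-1-C75S (43.1 CPM). Its log2 ratio was 0.49 (0.39 to 0.60), and 96.6% of genes had a smaller one. The share of spots with a Foxa3 UMI was 41.7% and 51.5%, and 9.33% and 11.6% after thinning. Foxa1, a pioneer factor of liver specification, gave 603 UMIs in AEG-1-WT (14.3 CPM) versus 746 in AEG-1-C75S (17.9 CPM). Its log2 ratio of 0.33 (0.17 to 0.48) lay just past the threshold of 0.322, and Foxa1 was no longer called when spots were thinned (0.25) or when the 5 groups of spots along the lobule were weighted equally (0.319). Foxa2, a pioneer factor that also controls bile acid and lipid genes, gave 982 UMIs in AEG-1-WT (23.2 CPM) versus 1131 in AEG-1-C75S (27.1 CPM). With a log2 ratio of 0.22 (0.10 to 0.35), Foxa2 had an interval above 0 without passing that threshold. The spots with a UMI were 22.0% and 27.8% for Foxa1 and 33.6% and 39.3% for Foxa2.

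The nuclear receptors went opposite ways by small amounts. Hnf4a, the central regulator of the hepatocyte program, gave 12464 UMIs in AEG-1-WT (295 CPM) versus 13023 in AEG-1-C75S (312 CPM), a log2 ratio of 0.08 (0.05 to 0.12). Nr5a2, which acts on bile acid synthesis and is also known as liver receptor homolog, gave 3311 UMIs in AEG-1-WT (78.4 CPM) versus 2818 in AEG-1-C75S (67.6 CPM), a log2 ratio of −0.21 (−0.29 to −0.14). Hnf4a UMIs were found on 98.3% and 97.1% of the spots, and Nr5a2 UMIs on 74.4% and 68.9%. Nr5a2 was thus the factor with the lowest ratio, although 23.6% of all genes had a lower one still.

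The leucine zipper factors also went opposite ways. Cebpa, which restrains hepatocyte proliferation and drives metabolic genes, gave 14140 UMIs in AEG-1-WT (335 CPM) versus 12319 in AEG-1-C75S (296 CPM), a log2 ratio of −0.18 (−0.21 to −0.14). Cebpb, which responds to cytokines, hormones and regeneration, gave 14772 UMIs in AEG-1-WT (350 CPM) versus 15647 in AEG-1-C75S (375 CPM), a log2 ratio of 0.10 (0.07 to 0.14). The highest Cebpb count on a single spot was 25 in AEG-1-WT versus 28 in AEG-1-C75S. Both leucine zipper factors were found on at least 97.4% of the spots of each section. Prox1, a corepressor of nuclear receptors in adult liver, gave 5295 UMIs in AEG-1-WT (125 CPM) versus 5066 in AEG-1-C75S (122 CPM). Its log2 ratio of −0.04 (−0.10 to 0.01) had an interval that held 0, and its sign turned under 4 of 9 alternatives, which were TMM factors (0.01), thinning (0.01), centring on the median gene (0.01) and totals without the 20 most abundant genes (0.0002). Prox1 is also made by lymphatic endothelium, whose summed markers were at 28.1 and 27.9 CPM. Of its 3 measured markers, 1 was lower in AEG-1-C75S and 0 were higher, beside 12.2% and 5.7% of all genes.

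**Figure D2:**
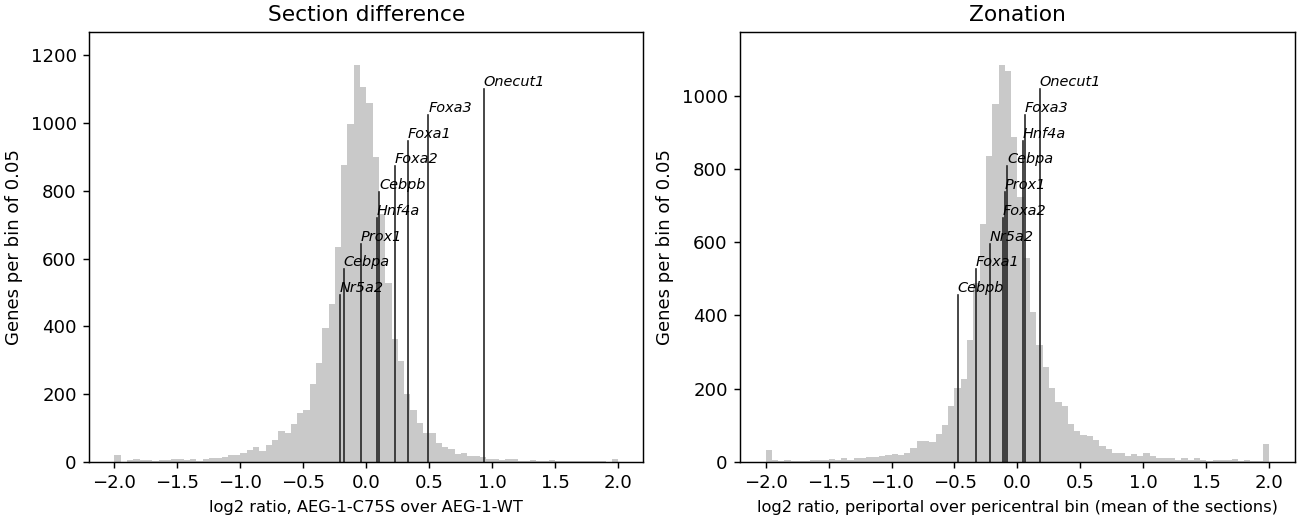
Number of genes (vertical axis) by log2 ratio of AEG-1-C75S to AEG-1-WT (left, 12004 genes) and by log2 ratio of the periportal over the pericentral bin, averaged over the sections (right, 11066 genes). The outermost bars also hold all genes beyond them, and black lines mark the 9 factors at arbitrary heights. Onecut1 and Foxa3 lie in the upper tail on the left, and Cebpb lies farthest to the pericentral side of the 9 on the right.

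To follow the factors along the lobule, the spots of each section were ranked by the ratio of Cyp2f2 UMIs to Cyp2e1 UMIs, each plus 1, and divided into 5 bins of equal size. Cyp2f2 is a periportal and Cyp2e1 a pericentral cytochrome. From the pericentral to the periportal bin Cyp2f2 went from 370 to 2445 CPM in AEG-1-WT, while Cyp2e1 went from 13168 to 2153 CPM. The same steps in AEG-1-C75S were from 569 to 2775 CPM and from 12014 to 2296 CPM. These genes ranked the spots, so their course is a description of the bins. Since spots were ranked within each section, the same bin need not be the same lobule position in both. The median ratio in the pericentral bin was 0.038 in AEG-1-WT versus 0.060 in AEG-1-C75S. Along the lobule a gene was called when the log2 ratio of the end bins was beyond 0.32 the same way in both sections. The intervals of both sections also had to leave out 0. Of the 9 factors, only Cebpb was called by this rule. Over all 11066 genes, 2.66% were called periportal and 6.55% pericentral. The median absolute log2 ratio between the end bins, averaged over the sections, was 0.12 for the factors and 0.18 for all genes. Averaging lets opposite signs cancel, and in AEG-1-WT alone the median over the factors was 0.21. Counting error also raises an absolute ratio for genes with few UMIs. These medians therefore do not show whether the factors were flatter than other genes. With its sign, the median over all genes was −0.11 in AEG-1-WT and −0.09 for AEG-1-C75S, so a gene at 0 stood slightly to the portal side of most genes. The medians over the factors were −0.17 and −0.02.

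Cebpb was highest in the pericentral bin of both sections. Its levels in AEG-1-WT, from the pericentral to the periportal bin, were 397, 380, 355, 326 and 290 CPM. In AEG-1-C75S they were 446, 396, 373, 344 and 317 CPM. The level was lower at each step toward the portal side in both sections, and AEG-1-C75S had the higher value in every bin, with 4 of the 5 intervals of the ratio above 0. The pericentral level exceeded the periportal one 1.37-fold in AEG-1-WT (log2 ratio of periportal over pericentral −0.45, −0.53 to −0.37) versus 1.41-fold in AEG-1-C75S (−0.49, −0.57 to −0.42). Under all 8 other ways of ordering, grouping, scaling or selecting the spots, the log2 ratio kept its sign, with values from −0.54 to −0.33 in AEG-1-WT, and for AEG-1-C75S from −0.61 to −0.38.

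Nr5a2 had a shallower slope in the same direction. Its levels from the pericentral to the periportal bin were 83.3, 82.5, 77.6, 76.8 and 71.5 CPM in AEG-1-WT versus 73.9, 69.5, 66.7, 64.5 and 63.5 CPM in AEG-1-C75S. The log2 ratio of the ends was −0.22 in each section (−0.38 to −0.06 and −0.39 to −0.05), which left out 0 without passing the threshold. AEG-1-C75S had the lower value in every bin, with log2 ratios from −0.25 to −0.17. Of the 5 intervals of that ratio, 4 lay below 0, and the one of the periportal bin held 0. When 10 bins replaced the 5, Nr5a2 was called pericentral together with Cebpb, and after thinning its AEG-1-C75S ratio was 0.11 with an interval that held 0 (−0.32 to 0.53).

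**Figure D3:**
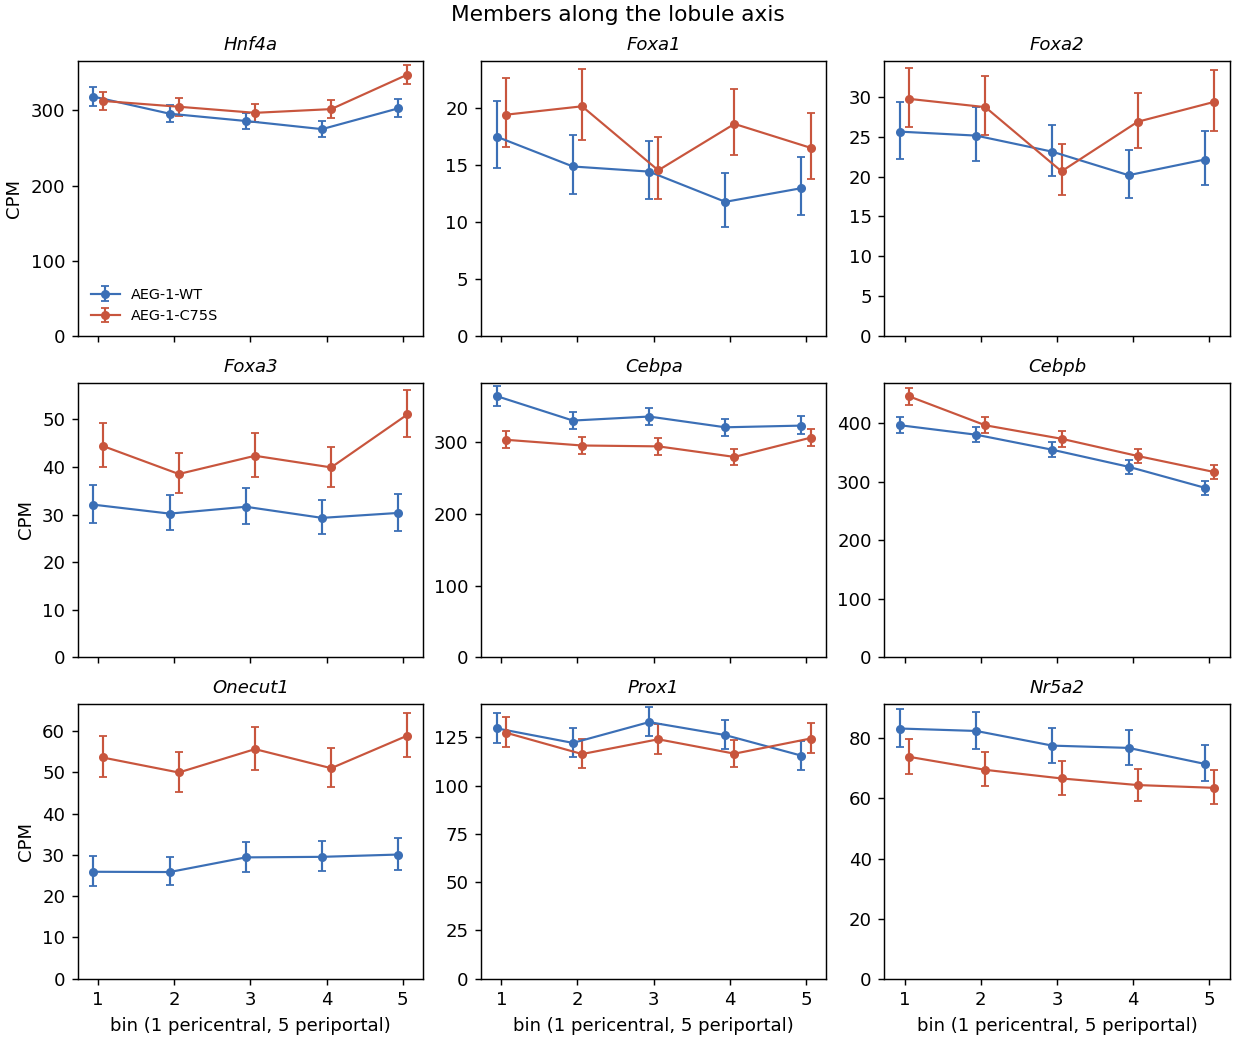
Level in CPM (linear axes from 0, one scale per gene) in the 5 bins of each section, from pericentral (1) to periportal (5), with 95% Poisson intervals. Cebpb declines in both sections, and Onecut1 and Foxa3 are higher in AEG-1-C75S in every bin.

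For Hnf4a, Cebpa and Foxa3 the end bins differed in opposite directions in the sections, although for each of them the interval held 0 in at least 1 section. Hnf4a had 318, 296, 286, 275 and 303 CPM from the pericentral to the periportal bin in AEG-1-WT versus 313, 305, 297, 302 and 348 CPM in AEG-1-C75S. Its highest level was thus in the pericentral bin of one section and in the periportal bin of the other. The log2 ratio of the ends was −0.07 (−0.15 to 0.01) in AEG-1-WT versus 0.15 (0.08 to 0.23) in AEG-1-C75S, a difference of 0.23 (0.11 to 0.34). The sign in AEG-1-WT turned when the ratios were centred on the median gene (0.04) or when the 20 most abundant genes were left out of the totals (0.05). Cebpa had 364, 330, 336, 321 and 323 CPM in AEG-1-WT versus 304, 296, 294, 280 and 306 CPM in AEG-1-C75S, so that its level in AEG-1-C75S was lower in all bins and farthest below at the pericentral end. Of the 5 intervals of the Cebpa ratio between the sections, 4 lay below 0, and the one of the periportal bin held 0. The log2 ratio of the ends was −0.17 (−0.25 to −0.10) and 0.01 (−0.07 to 0.09), a difference of 0.19 (0.08 to 0.30). The Cebpa sign in AEG-1-C75S turned after thinning (−0.09) and with 3 or 10 bins in place of 5 (−0.03 and −0.05). Neither difference was beyond 0.32. By a difference beyond 0.32 with an interval leaving out 0, no factor changed its zonation. Of all genes, 3.01% had a higher and 2.97% a lower periportal share in AEG-1-C75S by that rule.

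Foxa3 had 32.1, 30.2, 31.6, 29.3 and 30.3 CPM from the pericentral to the periportal bin in AEG-1-WT versus 44.4, 38.5, 42.4, 39.9 and 51.0 CPM in AEG-1-C75S. The level was higher in AEG-1-C75S in all 5 bins, with log2 ratios from 0.35 to 0.75, the highest at the portal end, and every interval above 0. The log2 ratio of its end bins was −0.08 (−0.34 to 0.18) in AEG-1-WT versus 0.20 (−0.01 to 0.41) in AEG-1-C75S, and the difference of 0.28 had an interval that held 0 (−0.04 to 0.61). The sign in AEG-1-WT turned when the ratios were centred on the median gene (0.03), without the 20 most abundant genes (0.04) and with other zone markers (0.002). Onecut1 was highest in the periportal bin of both sections. Its levels toward that bin were 25.9, 25.9, 29.4, 29.5 and 30.1 CPM in AEG-1-WT versus 53.6, 49.97, 55.6, 51.0 and 58.9 CPM in AEG-1-C75S. Every bin of AEG-1-C75S exceeded every bin of AEG-1-WT. The intervals of its end ratios held 0 in both sections (0.22, −0.06 to 0.49, and 0.14, −0.05 to 0.33).

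The other forkhead factors and Prox1 gave no zonation that held in both sections. Foxa1 had 17.5, 14.9, 14.4, 11.8 and 13.0 CPM in AEG-1-WT versus 19.4, 20.2, 14.5, 18.6 and 16.5 CPM in AEG-1-C75S. Its end ratio was −0.43 (−0.81 to −0.05) in AEG-1-WT, with an interval that held 0 in AEG-1-C75S (−0.23, −0.58 to 0.11). Between the sections, 2 of the 5 intervals of Foxa1 lay above 0. Foxa2 had 25.7, 25.2, 23.1, 20.2 and 22.2 CPM in AEG-1-WT versus 29.8, 28.7, 20.7, 26.9 and 29.4 CPM in AEG-1-C75S. For Foxa2 the middle bin was lower in AEG-1-C75S (−0.16, −0.47 to 0.14) while the other bins were higher, and 2 of the 5 intervals lay above 0. Prox1 had log2 ratios between the sections from −0.11 to 0.11 over the bins, and all 5 intervals held 0. Its end ratio was −0.17 (−0.30 to −0.04) in AEG-1-WT versus −0.03 (−0.16 to 0.09) in AEG-1-C75S.

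The genes most like each factor in their course along the lobule were sought among 6883 genes with at least 1000 UMIs, by Pearson's r of log2 CPM over the 10 bins of both sections together, centred within each section. The points share 2 libraries, and the highest of so many values is high by selection, so the values are descriptions. Cebpb was most like Fah (r = 0.997), the last enzyme of tyrosine breakdown, then Rgn (0.995) and Apoc4 (0.994). Fah had end ratios of −0.29 in AEG-1-WT versus −0.28 in AEG-1-C75S, shallower than those of Cebpb, and Rgn had steeper ones of −1.17 and −1.12. Nr5a2 was most like Nfe2l1 (0.989), Echdc2 (0.987) and Tapt1 (0.986), and Cebpa most like Fdft1 (0.975), an enzyme of sterol synthesis, with Pnrc1 (0.970) and Rab2a (0.959) next. Onecut1 was most like Fuom (0.973), Atl2 (0.949) and Shfl (0.943). Of these, Fuom had a ratio of −0.38 and Atl2 of −0.28 between the sections, opposite to that of Onecut1, since centring removes the section difference. For Hnf4a (Slc25a10), Foxa1 (Ipp), Foxa2 (Ado), Foxa3 (Cdip1) and Prox1 (Ppp1r15b) the best r lay between 0.931 and 0.957.

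Because cholangiocytes also express several of these factors, spots in the top 5% by the share of UMIs from cholangiocyte markers (Epcam, Krt7, Krt19, Spp1, Sox9 and Cldn7) were set against the other spots of the same bin. There were 115 such spots in AEG-1-WT versus 108 in AEG-1-C75S, with the markers at 1261 and 921 CPM against 71.1 and 61.2 CPM on the other spots. None of the 9 factors was called by a log2 ratio beyond 0.32 the same way in both sections with both intervals leaving out 0. By the same rule 6.43% of 11066 genes were higher there and 0.19% lower. Onecut1 gave 102 UMIs on those spots of AEG-1-WT where 60.6 would follow from the other spots, a log2 ratio of 0.75 (0.43 to 1.06). In AEG-1-C75S it gave 108 UMIs where 98.5 would follow, a log2 ratio of 0.13 (−0.17 to 0.42). Foxa1 gave 43 UMIs against 25.2 in AEG-1-WT (0.77, 0.26 to 1.26) versus 22 against 32.6 in AEG-1-C75S (−0.57, −1.26 to 0.06). Both factors were thus higher on cholangiocyte-rich spots in AEG-1-WT, with intervals that held 0 in AEG-1-C75S, and that difference between the sections was not tested. Hnf4a and Cebpb were lower there in both sections by their intervals, by small amounts. These intervals are approximate, and those of Cebpb end close to 0. The log2 ratios of Hnf4a were −0.13 (−0.25 to −0.003) and −0.21 (−0.34 to −0.08), and those of Cebpb −0.12 (−0.24 to −0.002) and −0.13 (−0.25 to −0.0003). Foxa3 gave 63 UMIs against 67.0 in AEG-1-WT versus 59 against 83.9 in AEG-1-C75S, log2 ratios of −0.09 (−0.49 to 0.29) and −0.51 (−0.91 to −0.13).

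Cholangiocyte markers were lower in AEG-1-C75S for 5 of the 6, beside 12.2% of all genes, and their summed level was 133 and 98.5 CPM. Of the 5 connective tissue markers, 4 were lower and 1 was higher. With cholangiocyte-rich and connective tissue spots left out, the log2 ratio between the sections was 0.97 for Onecut1, 0.50 for Foxa3 and 0.36 for Foxa1, beside 0.93, 0.49 and 0.33 over all spots. The part of cholangiocytes on the remaining spots was not tested.

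In the 115 and 108 spots richest in connective tissue markers (Col1a1, Col3a1, Dcn, Mgp and Dpt), which were at 1616 and 688 CPM against 171 and 185 CPM elsewhere, no factor was called. Among all genes 5.59% were higher and 0.0452% lower there. Hnf4a was lower in both sections, at −0.13 (−0.26 to −0.01) and −0.17 (−0.31 to −0.04), and Onecut1 was higher in AEG-1-WT alone by its interval (0.39, 0.05 to 0.72, against −0.10, −0.43 to 0.22). The difference between the sections was not tested. Spots in the top 10% by markers of Kupffer cells, the resident macrophages (Clec4f, Cd5l, Vsig4, Csf1r and Adgre1), numbered 231 and 216, with marker levels of 1700 and 1944 CPM against 738 and 925 CPM. No factor was called there either, and 2.13% of genes were higher and 0.19% lower. The interval lay below 0 for Hnf4a in AEG-1-WT (−0.12, −0.22 to −0.03). It also did so in AEG-1-C75S for Foxa3 (−0.31, −0.57 to −0.06) and Cebpa (−0.12, −0.21 to −0.03). For each of these factors the interval in the other section held 0. Cebpb, which macrophages also express, lay close to its expected count on these spots, at 0.001 (−0.08 to 0.08) in AEG-1-WT versus 0.01 (−0.07 to 0.09) in AEG-1-C75S. Kupffer cell markers were higher in AEG-1-C75S for 3 of 5, beside 5.7% of all genes. Their part in the ratios of the factors was not tested.

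**Figure D4:**
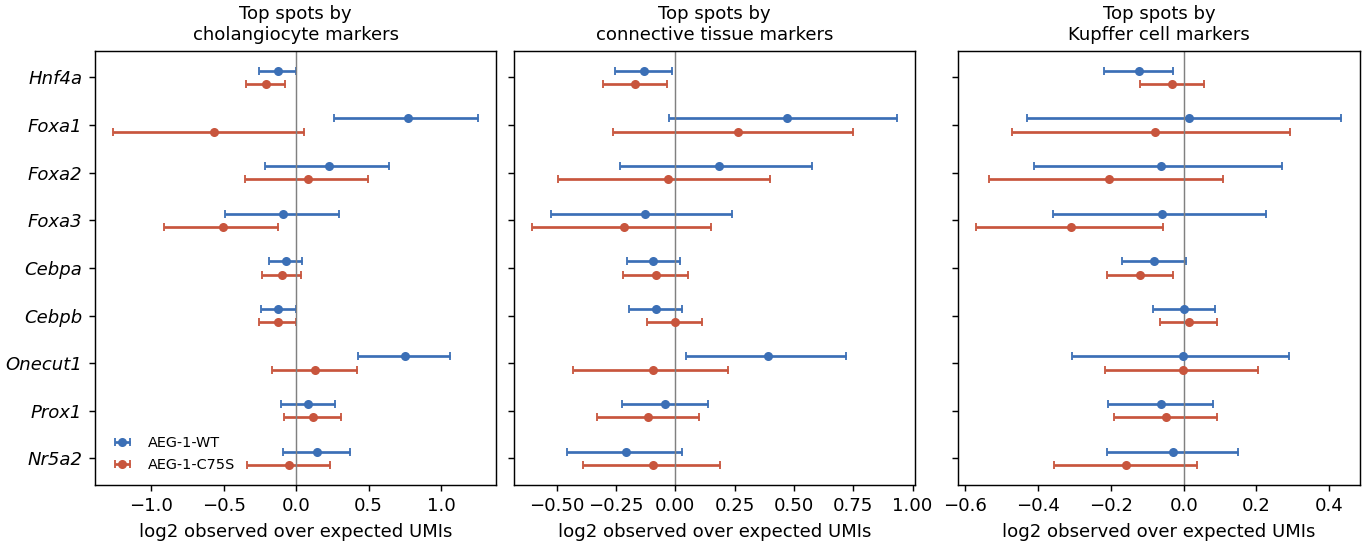
Log2 of the UMIs observed on spots rich in cholangiocyte, connective tissue or Kupffer cell markers over the UMIs expected from the other spots of the same bin, with 95% counting intervals, for each factor and section (horizontal scales differ between panels). Most intervals hold 0, and Onecut1 and Foxa1 stand to the right for cholangiocyte-rich spots in AEG-1-WT only, at 0.75 and 0.77.

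Beyond the 9 factors, 42 other liver transcription factors and cofactors were measured. Of these, 2 were higher in AEG-1-C75S, 7 were lower and 33 were neither, with a median log2 ratio of −0.10, beside 5.7% and 12.2% of all genes. The 2 higher ones were Nr0b2 (40.7 and 83.1 CPM, log2 ratio 1.03), the small heterodimer partner that represses Nr5a2 and Hnf4a, and Hhex (39.1 and 64.5 CPM, 0.72), a homeobox factor of liver and bile duct development. Among the lower ones were Klf15 (−0.79), a glucocorticoid-responsive factor of amino acid catabolism, Esrra (−0.67), Foxo3 (−0.67), Esr1 (−0.47), Hlf (−0.44) and Thrb (−0.37). Onecut2, the paralog of Onecut1, was at 81.8 and 86.2 CPM (0.08, 0.01 to 0.14). It was not called, and it is given as the paralog and was not picked by the naming rule. Gata4 (0.19) and Nr2f1 (0.20, −0.21 to 0.60) followed next among those above 0, below the threshold. Along the lobule, 3 of the 42 were periportal in both sections, among them Ppargc1a and Esr1, and 5 pericentral, beside the same 2.66% and 6.55% of all genes. The most pericentral was Tbx3, with log2 end ratios of −2.55 and −2.59, followed by Nr1i3 (−0.85 and −0.85) and Ppara (−0.64 and −0.62). The ratios of Cebpb, −0.45 and −0.49, were smaller than those of these 3 factors in both sections.

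Of 32 textbook target genes of the 9 factors, 31 were measured. In AEG-1-C75S 6 were higher, 5 were lower and 20 were neither, with a median log2 ratio of 0.04, beside 5.7% higher and 12.2% lower among all genes. This list and that of the other factors were chosen with earlier results of these data known, so their counts are descriptions. Igfbp1, an insulin-repressed target of the Foxa factors, had the highest ratio, at 48.8 CPM in AEG-1-WT versus 309 CPM in AEG-1-C75S (log2 ratio 2.66). G6pc, the last enzyme of glucose output, was at 78.6 and 209 CPM (1.41), and Cyp8b1, which is needed for cholic acid, at 4.26 and 7.25 CPM (0.77). Apoa1 (0.50) and Abcg8 (0.40) were the other higher targets besides Nr0b2, which stands in both lists. On the other side were Cyp7a1, the rate-limiting enzyme of bile acid synthesis and a target of Nr5a2 and Hnf4a, at 185 and 67.5 CPM (−1.45), and Tat, an enzyme of tyrosine breakdown, at 925 and 454 CPM (−1.03). Gls2 (−0.66) and F7 (−0.47) were lower too. Genes of this list thus lay on both sides of 0. The list was not divided by factor, and the part of any factor in these ratios was not tested. Pck1, another enzyme of glucose production, was at 1933 and 1564 CPM (−0.31), below the threshold and opposite in sign to G6pc.

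Along the lobule, 6 of the 31 targets were periportal in both sections and 4 pericentral, beside 2.66% and 6.55% of all genes. The steepest periportal ones were Gls2 (log2 end ratios of 1.70 in AEG-1-WT versus 1.78 in AEG-1-C75S), Pck1 (1.19 and 1.003) and G6pc (1.46 and 0.38). The 4 called pericentral were Cyp7a1 (−1.85 and −1.77), Cyp27a1 (−1.08 and −1.04), Igfbp1 (−0.97 and −0.60) and Abcg8 (−0.65 and −0.37). Cyp8b1 had the third lowest mean of the ratios (−0.49 and −1.42) but was not called, since its interval held 0 in AEG-1-WT (−1.19 to 0.20). The log2 end ratios of Hnf4a, Foxa2, Foxa3, Cebpa, Onecut1, Prox1 and Nr5a2 stayed within 0.32 in both sections. Among these, Nr5a2 was at −0.22 in each section, with both intervals below 0, though both held 0 when centred on the median gene. Cebpb lay beyond 0.32 in both sections (−0.45 in AEG-1-WT versus −0.49 in AEG-1-C75S). Foxa1 did so in AEG-1-WT only (−0.43 versus −0.23 in AEG-1-C75S). The part of any factor in the course of the targets along the lobule was not tested.

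**Figure D5:**
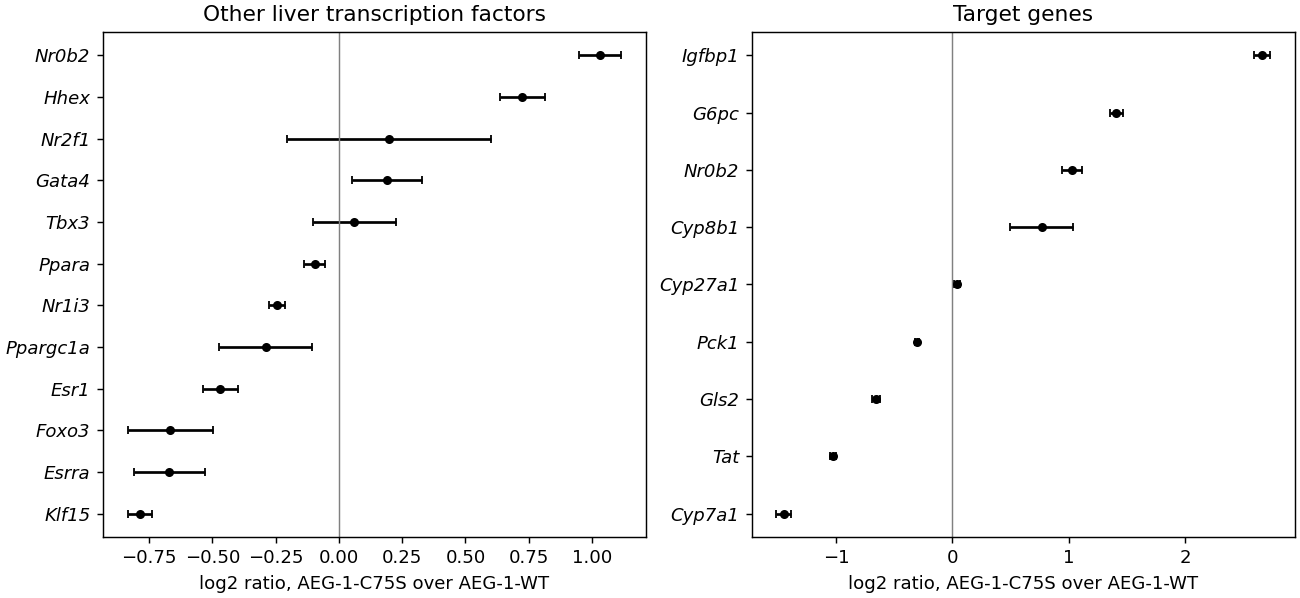
Log2 ratio of AEG-1-C75S to AEG-1-WT, with 95% counting intervals, for the other liver transcription factors (left) and the target genes (right) picked by the naming rule and reported here (horizontal scales differ). Nr0b2 and Hhex lie highest on the left, and Igfbp1 at 2.66 and Cyp7a1 at −1.45 mark the ends on the right.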

How the data were processed

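The deposited files hold unnormalized UMI counts, 19465 genes by spot, which the authors produced by running Space Ranger 2.0.1 against mm10 and its probe set for mouse. The submitters' processing notes also name Seurat 4.3.0. No column of another sample was present (0 columns), and 11 symbols had several entries, of which the first was taken. How many probes a gene has was not given in the sources used here, so no level was set against that of another gene. Spot coordinates were not used.

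Spots above 50000 UMIs were removed, 7 from AEG-1-WT, 4 from AEG-1-C75S. UMIs were summed over spots and divided by their total (CPM). A ratio between sections needed 50 UMIs in all, and one along the lobule 50 in each section. Intervals at 95% are exact Poisson intervals for sums, exact binomial (Clopper-Pearson) intervals for ratios and shares, and normal approximations for differences of log2 ratios. For marker-rich spots the ratio intervals are approximate, since the count of the other spots was replaced by an effective count. UMI sums cover counting error only. Python 3.11.15, numpy 2.4.6, scipy 1.17.1, pandas 2.3.3, matplotlib 3.10.9 and, for TMM factors, edgeR 4.0.16 in R 4.3.3 were used. The code was tested on simulated counts.

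The 9 genes, the marker lists and the lists of other factors and targets were chosen with earlier results of these data known. From each list the 4 largest rises and 4 largest falls among genes with at least 200 UMIs were named, with the 3 most periportal and the 3 most pericentral; other called genes and Onecut2 were added after their values were seen. Some genes of the lists are counted but not reported here by name. Gene positions are from the GENCODE annotation of mm10 and upstream sequences from RefSeq. The alternatives were no spot filter, equal weight per spot or per bin of the lobule, other scalings, depth-matched or thinned spots, leaving out marker-rich spots, 3 or 10 bins in place of 5, other zone markers, double the share of marker-rich spots, other minimums and a fold of 1.5 or the fold alone.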

Additional observations from a re-analysis of the deposited data

Results flagged for a closer look

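For 3 factors the log2 ratio of the periportal over the pericentral bin had opposite signs in the sections. The difference, AEG-1-C75S minus AEG-1-WT, was 0.23 for Hnf4a, 0.28 for Foxa3 and 0.19 for Cebpa. With 1 section per genotype the difference was not tested against the spread between animals.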

How the results depend on the processing

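No paired analysis was possible because each genotype had 1 section. Of the counts and medians of the comparisons, 66 alternative values stayed close to the reported ones and 11 moved. A count was close when it was within 1.5-fold of the reported one or when both were 0. A median was close when it lay in the counting interval of the factor at the median. By this rule the step from 3 to 2 factors called higher also counted as close. With a fold of 1.5, 1 factor was higher in AEG-1-C75S (Onecut1), 7 targets were called and 0 factors were zonated. Foxa1 was not called after thinning or with equal weight per bin. The median log2 ratio of the factors, 0.10, became 0.16 when centred on the median gene, 0.15 without the 20 most abundant genes, 0.16 with TMM factors, and 0.14 with depth-matched or thinned spots. With 10 bins in place of 5, 2 factors were zonated (Cebpb and Nr5a2) and 1 changed its zonation (Foxa3), and without cholangiocyte-rich and connective tissue spots 1 did (Foxa1). The cause of these moves was not tested. The share of all genes called was not computed with a fold of 1.5. Along the lobule it was also not computed with 10 bins or without cholangiocyte-rich and connective tissue spots. The counts of factors and targets under these settings thus have no background beside them. Of all called genes 31.8% were higher in AEG-1-C75S, against 45.1% when centred on the median gene, 42.9% without the 20 most abundant genes and 46.1% with TMM factors. Across all alternatives the log2 ratio between the sections lay between 0.93 and 1.08 for Onecut1, 0.35 and 0.55 for Foxa3, 0.25 and 0.46 for Foxa1, and 0.20 and 0.28 for Foxa2. Depth limits Foxa1 and Foxa2 most, with 603 and 982 UMIs in AEG-1-WT.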
